A study of Danio rerio with 43 samples.

Results

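The 9 genes described here are zebrafish counterparts of well-known targets of the transcription factor p53: mdm2, cdkn1a, ccng1, pmaip1, sesn1, sesn3, phlda3, ddb2 and zmat3. They were chosen by symbol, with earlier genotype results of these data known, and each matched 1 of the 31877 gene entries in the table. The study profiled polyadenylated RNA from pools of whole embryos by 3′ end sequencing (QuantSeq, which reads the end of each transcript). Embryos homozygous for the rif1 allele omf201 (rif1 omf201/omf201, called mutant below) were compared with wild-type (WT) embryos, all of strain Tab5 by the labels. Collections were at the 1-cell stage (0 to 0.5 hours post fertilisation, hpf), the 256-cell stage (2 to 2.5 hpf), dome in the late blastula (4 to 4.5 hpf), shield in the gastrula (6 hpf), bud at the end of gastrulation (10 hpf) and 24 hpf. In all, 21 libraries were mutant and 22 wild type. By stage, 3 mutant libraries stood against 4 wild-type ones at 1-cell, 3 against 3 at 256-cell, 3 against 4 at dome, 4 against 3 at shield, 4 against 4 at bud and 4 against 4 at 24 hpf. All embryos had been staged, and abnormal or unfertilised ones taken out. The labels do not give the parents' genotypes, so the mother's genotype, the embryo's genotype and a difference between fish lines cannot be told apart. In whole-embryo pools, fewer cells of a type and less RNA per cell cannot be told apart either, and before dome the same holds for the amount of an RNA and the length of its poly(A) tail.

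As background, p53 is a DNA-binding protein that is kept scarce by Mdm2, a ubiquitin ligase that marks it for destruction. DNA damage or stalled replication stabilises p53, which then switches on genes for cell cycle arrest, DNA repair, metabolism and cell death, among them mdm2 itself, which closes a negative feedback loop. In zebrafish, RNA at the 1-cell and 256-cell stages was mostly laid down by the mother in the egg, and the embryo's own genome becomes broadly active by dome. Rif1, the protein encoded by the mutated gene, controls when origins of replication fire and acts in the repair of DNA breaks.

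Libraries held 5211421 to 14143931 counts (median 7606729), and the lowest correlation of a library with the mean of the rest of its group was 0.963. The targeted gene went with the labels, since every mutant library had 15 to 139 counts of rif1 and every wild-type library 587 to 2305. None of the 9 genes is on chromosome 9, which carries rif1 in the RefSeq annotation of assembly GRCz12tu. Nothing states that libraries of a group came from separate clutches, so the p-values and standard errors measure the spread between these samples. Single-library values below are CPM, the usual measure of a gene's counts relative to the total of its library, scaled over all 43 libraries. Log2 fold changes are mutant over wild type from edgeR fits of each stage alone. Each is given with an approximate standard error (SE), the absolute log2 fold change divided by the square root of the test's F statistic. A gene was called at a Benjamini-Hochberg adjusted p under 0.05 over all genes tested at that stage. Because the 9 genes were chosen with genotype results known, their calls and folds are given as a description without p-values.

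Across development the 9 genes did not move as a block. pmaip1 was lower in mutants at all 6 stages and ccng1 at the first 4, whereas mdm2, sesn3 and phlda3 were higher in mutants at dome, and ddb2 at 256-cell. At the 1-cell stage 3 of the 7 genes tested were called (sesn1 higher, ccng1 and pmaip1 lower), beside 10.2% of all genes tested. At 256-cell it was 3 of 8 (ddb2 higher, ccng1 and pmaip1 lower), beside 13.5%. Dome had the most, 5 of 9 (mdm2, sesn3 and phlda3 higher, ccng1 and pmaip1 lower), beside 17%. Later stages had fewer. There were 2 of 8 at shield (ccng1 and pmaip1 lower) beside 9.76%, 1 of 7 at bud (pmaip1 lower) beside 5.51%, and 2 of 7 at 24 hpf (pmaip1 and sesn1 lower) beside 8.63%. The median log2 fold change of those tested was -0.58 at 1-cell, -0.25 at 256-cell, 0.42 at dome, -0.19 at shield, 0.28 at bud and 0.08 at 24 hpf, while that of all genes lay between -0.03 and 0.02. The 1-cell median was the value of zmat3, which had few counts and was not called. That value ranged from -0.90 to 0.52 in the alternative fits. The genes left out of a stage had too few counts there, and these shares were not used as support, since the genes had been picked on the same contrast.

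**Figure D1:**
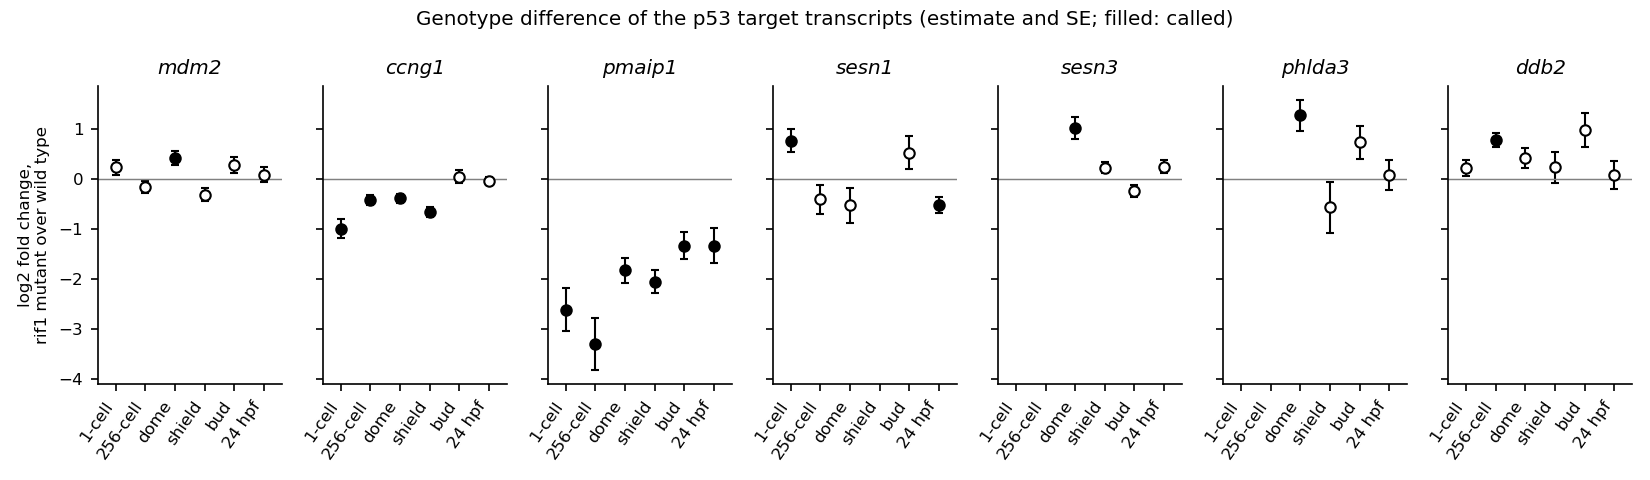
Log2 fold change (mutant over wild type, y axis) of 7 p53 target transcripts by stage (x axis), with bars of 1 SE and filled points where the gene was called. cdkn1a and zmat3 are left out for low counts. Stages at which a gene was not tested, or under 5 CPM in both genotypes, have no point. pmaip1 lies between -3.31 and -1.33 at every stage, ccng1 returns to near 0 at bud, and mdm2, sesn3 and phlda3 are filled above 0 at dome.

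Non-overlap of single libraries was read from the same libraries and contrast, so it is a description and no separate support. Mutant libraries lay wholly below the wild-type libraries for ccng1 and pmaip1 at 1-cell, ccng1, pmaip1 and sesn1 at 256-cell, ccng1 and pmaip1 at dome, mdm2, ccng1 and pmaip1 at shield, pmaip1 at bud, and pmaip1 and sesn1 at 24 hpf. They lay wholly above for sesn1 at 1-cell, ddb2 at 256-cell, mdm2, sesn3, phlda3 and ddb2 at dome, and ddb2 at bud. For ddb2 at dome the margin was small, with the lowest mutant library at 45 CPM and the highest wild-type library at 44.72 CPM. Of all genes tested, 24.8% at 1-cell, 30.3% at 256-cell, 27.5% at dome, 22.2% at shield, 12.4% at bud and 13.3% at 24 hpf had no overlap in either direction.

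**Figure D2:**
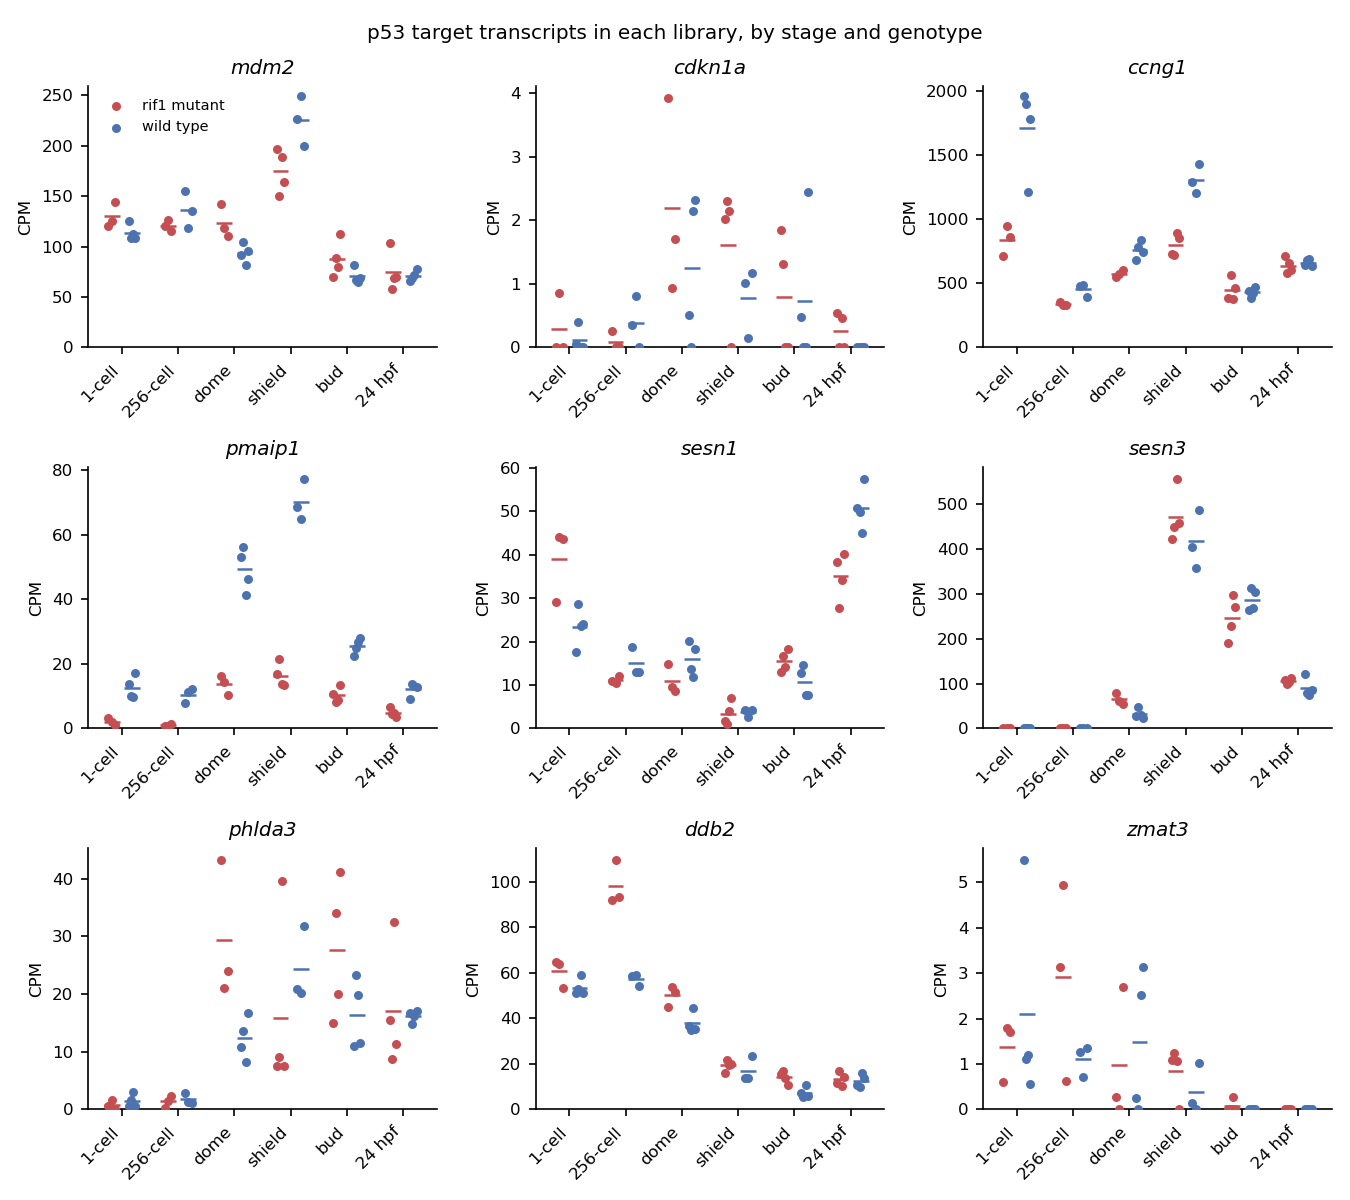
Level of each of the 9 transcripts (y axis, CPM, linear) in each library, by stage (x axis), with mutant libraries in red left of wild-type libraries in blue and a bar at each group mean. pmaip1 is lower in every mutant library at every stage, and cdkn1a and zmat3 stay under 6 CPM. At shield sesn3 overlaps between the genotypes, at 423 CPM or more in all 4 mutant libraries and 358.6 to 487.1 CPM in wild type.

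The clearest difference was in pmaip1 (ENSDARG00000089307), which encodes Noxa, a small BH3-only protein that binds and neutralises the survival protein Mcl-1 and so promotes cell death. Its transcript was lower in every mutant library than in any wild-type library of the same stage. At the 1-cell stage it had 3.18, 1.87 and 0.957 CPM in mutant libraries (9 to 37 counts each), against 13.7, 10.0, 9.70 and 17.3 CPM in wild-type libraries. At 256-cell it had 0.764, 0.921 and 1.48 CPM in mutants (8 to 14 counts), against 7.84, 11.2 and 12.3 CPM in wild type. The mutant means were 15.8% and 10.1% of wild type at these stages, with log2 fold changes of -2.61 (SE 0.44) and -3.31 (SE 0.52).

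In wild-type embryos pmaip1 was several times more abundant at dome and shield than before, and the mutant levels, though also higher than earlier, stayed far below. Dome libraries had 16.4, 14.5 and 10.4 CPM in mutants, against 53.2, 56.1, 41.5 and 46.4 CPM in wild type. Shield libraries had 16.9, 21.6, 13.7 and 13.4 CPM in mutants, against 68.6, 64.9 and 77.2 CPM in wild type. The highest mutant library of the whole series, at 21.6 CPM, was thus under the lowest wild-type library of dome, shield or bud. The log2 fold change was -1.83 (SE 0.25) at dome and -2.05 (SE 0.22) at shield.

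At bud and 24 hpf the estimated gap was smaller on the log scale but still without overlap. Its change from shield to bud (0.76) was not called in a fit of 4 groups. Bud libraries had 10.8, 8.07, 8.84 and 13.6 CPM in mutants, against 22.5, 25.0, 26.7 and 28.0 CPM in wild type. At 24 hpf the values were 6.58, 4.34, 4.83 and 3.42 CPM in mutants, against 9.16, 13.7, 13.2 and 12.7 CPM in wild type. The mutant means were 40.4% and 39.3% of wild type, with log2 fold changes of -1.33 (SE 0.27) and -1.33 (SE 0.35). The call at each of the 6 stages was kept in all alternatives run, including those that left out any 1 library.

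**Figure D3:**
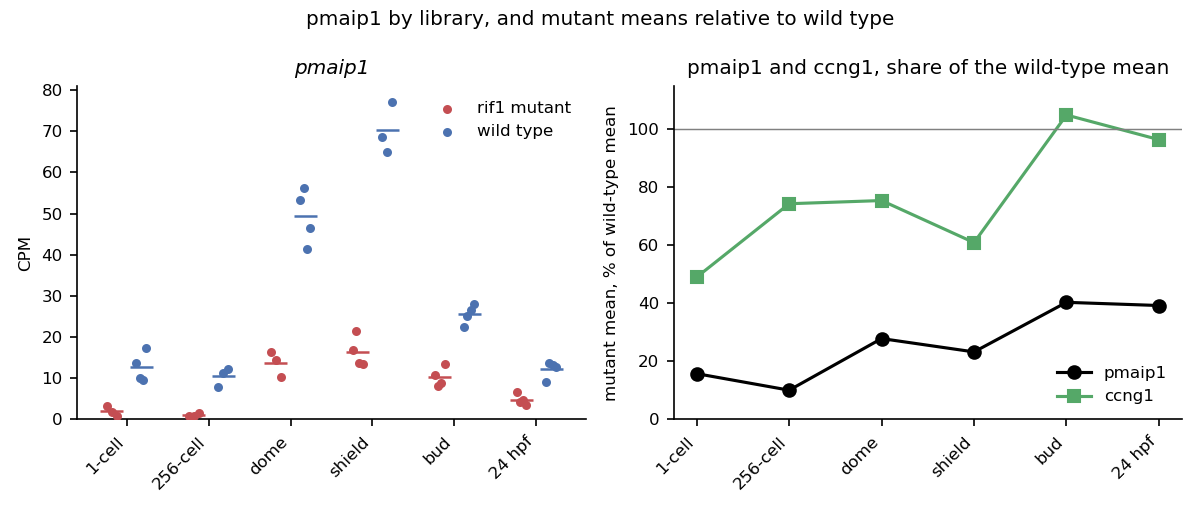
Left, pmaip1 level (CPM) in each library by stage, mutant in red left of wild type in blue, with bars at the group means; right, the mutant mean of pmaip1 (black circles) and ccng1 (green squares) as a percentage of the wild-type mean, with a line at 100. pmaip1 lies between 10.1% at 256-cell and 40.4% at bud, and ccng1 between 49.1% at 1-cell and 105% at bud.

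Of the feedback genes, ccng1 (ENSDARG00000076667), which encodes cyclin G1, a partner of phosphatase 2A that acts back on Mdm2 and p53, was lower in mutants up to gastrulation and not after it. At the 1-cell stage it had 713, 948 and 858 CPM in mutant libraries, against 1954, 1897, 1210 and 1776 CPM in wild-type libraries. The groups did not overlap, and the mutant mean was 49.1% of wild type (log2 fold change -0.99, SE 0.19). At 256-cell the libraries had 350, 332 and 329 CPM in mutants, against 479.9, 488 and 392 CPM in wild type, and at dome 549, 568 and 605 CPM in mutants, against 681, 782, 839 and 741 CPM in wild type. The mutant means were 74.4% and 75.5% of wild type (log2 fold changes of -0.42, SE 0.09, and -0.39, SE 0.09). At shield the mutant mean was 61.0% of wild type, with 726, 719.6, 895 and 849 CPM in mutants, against 1291, 1201 and 1428 CPM in wild type (log2 fold change -0.67, SE 0.09). The changes of this genotype difference from 1-cell to 256-cell (0.58) and from dome to shield (-0.28) were not called in fits of 4 groups. At bud and 24 hpf the groups overlapped, with means of 448 ± 88.5 and 638 ± 57.5 CPM in mutants, against 428 ± 36.4 and 661 ± 26.4 CPM in wild type (SD, n = 4 each). The log2 fold changes there were 0.04 (SE 0.12) and -0.05 (SE 0.08). Leaving out any 1 library ended none of the 4 calls of ccng1, but the 256-cell call was lost in a single fit of all 12 groups of stage and genotype (-0.43).

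Lists of stage markers also stood apart between the genotypes at several stages, among them shield, where pmaip1 and ccng1 were both low. Summed over 5 gastrula genes (gsc, chrd, noto, tbxta and tbx16), the level at shield was 1481 to 1690 CPM (median 1610) in mutant libraries and 1695 to 1945 CPM (median 1935) in wild type, apart by a small margin. Summed over 6 maternal RNAs it was 1520 to 1657 CPM (median 1581) in mutants and 1896 to 1995 CPM (median 1946) in wild type, and no gene of either list was at 0 throughout a group. At the 1-cell stage the maternal sum overlapped, at 6513 to 9353 CPM in mutants and 8740 to 11690 CPM in wild type. It was apart at dome (3514 to 3703 CPM in mutants, 3953 to 4521 CPM in wild type). The same held at 24 hpf (353.9 to 396.7 CPM in mutants, 403.8 to 464.4 CPM in wild type). The gastrula sum was also apart at bud (861.1 to 917.4 CPM in mutants, 1010 to 1122 CPM in wild type). At dome it overlapped (697.3 to 854 CPM in mutants, 743.2 to 930.9 CPM in wild type). The sum of 5 early zygotic blastula genes (vox, vent, mxtx2, klf17 and aplnrb) overlapped at dome and shield. Its shield medians were 888.1 CPM in mutants and 836.2 CPM in wild type. The part of these differences in the results for pmaip1 and ccng1 was not tested.

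mdm2 (ENSDARG00000033443) changed sign with stage. Dome libraries had 143, 119 and 110.2 CPM in mutants, against 91.7, 105, 82.0 and 95.9 CPM in wild type, so that every mutant library was higher (log2 fold change 0.42, SE 0.14, called). Shield libraries had 197, 149.9, 189 and 165 CPM in mutants, against 227, 249.8 and 200.2 CPM in wild type, so that every mutant library was lower (log2 fold change -0.32, SE 0.12, not called). The dome call was kept in 4 of 13 alternatives. With all libraries it was lost under library totals (0.38), without a filter (0.41) and in the fit of all 12 groups (0.40), and it was lost without any 1 of mutant replicates 1 or 2 or wild-type replicates 1, 3 or 4 (log2 fold change 0.30 to 0.44). At the other stages the groups overlapped and no call was made, with log2 fold changes of 0.23 (SE 0.15) at 1-cell, -0.17 (SE 0.12) at 256-cell, 0.28 (SE 0.16) at bud and 0.08 (SE 0.15) at 24 hpf.

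The sestrins restrain the growth kinase complex mTORC1 when cells are stressed or starved. sesn1 (ENSDARG00000020693) was called in opposite directions at the first and last stages. At 1-cell it had 29.2, 44.1 and 43.6 CPM in mutants, against 17.6, 28.5, 23.6 and 24.0 CPM in wild type, which put every mutant library higher (log2 fold change 0.76, SE 0.23). At 24 hpf it had 38.3, 27.7, 34.3 and 40.1 CPM in mutants, against 50.8, 49.9, 45.1 and 57.4 CPM in wild type, which put every mutant library lower (log2 fold change -0.53, SE 0.16). Both calls were close to the threshold. The 1-cell call was lost when any 1 of the 7 libraries was left out (0.64 to 0.93), and the 24 hpf call without any 1 of mutant replicates 2 or 3 or wild-type replicates 1, 2 or 4 (-0.54 to -0.43). Between these stages no call was made, with log2 fold changes of -0.41 (SE 0.30) at 256-cell, where mutant libraries were all lower, -0.53 (SE 0.35) at dome, -0.07 (SE 0.84) at shield and 0.52 (SE 0.32) at bud. Later tissue markers were hbbe1.1, actc1b, ttn.1, neurod1 and crygm3, of which 3 matched an entry. hbbe1.1 and ttn.1 did not, and crygm3 was at 0 in every library at 24 hpf. The sum at that stage was thus that of actc1b and neurod1 alone. It was 4697 to 6975 CPM in mutants (median 6146) and 9165 to 9860 CPM in wild type (median 9335). The sum of 5 yolk syncytial layer markers was 10320 to 14090 CPM in mutants (median 10840) and 5816 to 7327 CPM in wild type (median 6381). Their part in the 24 hpf values of sesn1 and pmaip1 was not tested.

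sesn3 (ENSDARG00000015822) was nearly absent before dome, with 0 to 17 counts in each 1-cell and 256-cell library. At dome it had 80.2, 60.5 and 55.2 CPM in mutants, against 28.7, 48.5, 30.4 and 23.4 CPM in wild type. All mutant libraries were above all wild-type ones, with a mean 199% of wild type (log2 fold change 1.01, SE 0.22), and the call was kept in all alternatives run. From shield on the groups overlapped, with 471 ± 57.9 CPM (SD, n = 4) in mutants and 417 ± 65.1 (n = 3) in wild type at shield, and log2 fold changes of 0.22 (SE 0.11) at shield, -0.25 (SE 0.13) at bud and 0.24 (SE 0.13) at 24 hpf. Without wild-type replicate 1, the highest of its group, the 24 hpf difference was called at 0.41.

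phlda3 (ENSDARG00000037804), whose product competes with the survival kinase Akt for membrane lipids, was also low before dome, at 0 to 35 counts in each library. At dome it had 43.2, 21.04 and 24.1 CPM in mutants, against 10.8, 13.6, 8.19 and 16.8 CPM in wild type. The groups did not overlap, and the mutant mean was 238% of wild type (log2 fold change 1.27, SE 0.31, called). The size rested partly on mutant replicate 1: without it the log2 fold change was 0.88 and the call was lost. At shield mutant replicate 3 stood apart, at 39.6 CPM beside 7.46, 9.03 and 7.47 CPM in the other mutant libraries, against 20.96, 20.3 and 31.9 CPM in wild type. With it the difference was not called (log2 fold change -0.57, SE 0.51), and without it mutants were called lower at -1.56. At bud and 24 hpf the groups overlapped (0.72, SE 0.32, and 0.08, SE 0.29).

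The outer epithelium of the blastula, the enveloping layer, differed in its markers at dome together with sesn3 and phlda3. The sum of krt4, krt5, krt18a.1, cldne and cyt1 was 929, 1002 and 987 CPM in mutant libraries, against 389, 527, 476 and 346 CPM in wild-type libraries. All mutant libraries were above all wild-type ones for krt4, krt5, krt18a.1 and cyt1, cldne overlapped, and none of the 5 was at 0. The same sum was 4458 to 4640 CPM in mutants and 3418 to 3679 CPM in wild type at shield. It overlapped at bud (9308 to 10960 CPM in mutants, 8519 to 9611 CPM in wild type). At 24 hpf it was apart again, at 29070 to 32290 CPM in mutants and 25970 to 26250 CPM in wild type. Among mutant dome libraries replicate 1 had the highest sesn3 and phlda3 and the lowest sum of these markers. The mutant sums lay close together (929 to 1002 CPM). Among wild-type dome libraries sesn3 ran in the same order as the sum, from replicate 2 down through 3 and 1 to 4. phlda3 did not, being highest in wild-type replicate 4, which had the lowest sum. The order of so few libraries cannot decide anything. The sum of 5 yolk syncytial layer markers was also apart at dome, at 123.4 to 153.8 CPM in mutants and 82.69 to 119.8 CPM in wild type. The part of either set of markers in the dome values was not tested, nor was that of the enveloping layer markers in the 24 hpf values.

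**Figure D4:**
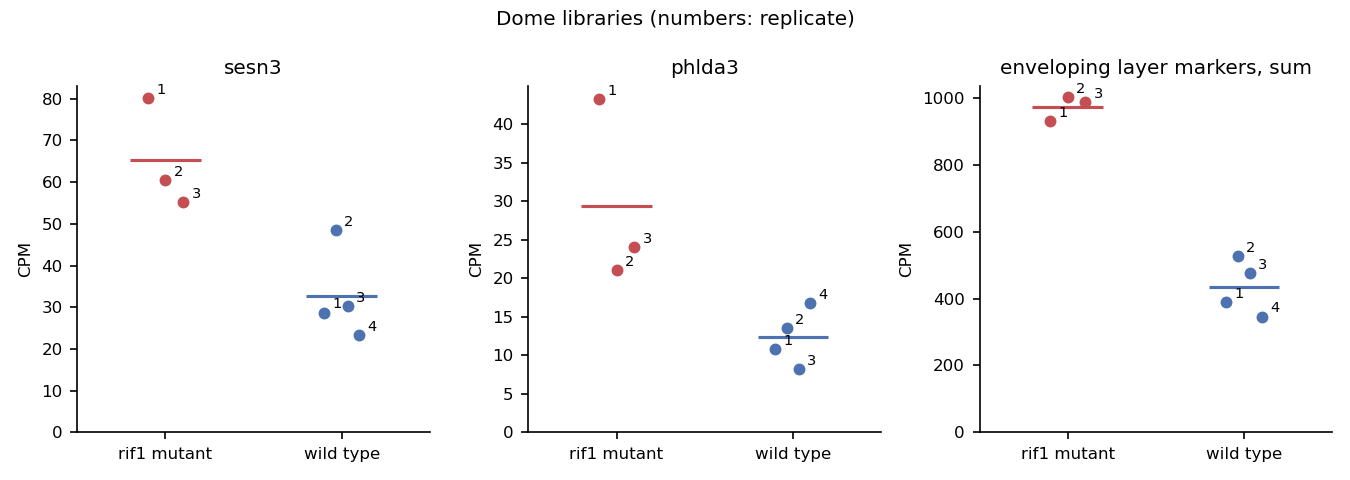
Levels (y axes, CPM, from 0) of sesn3, phlda3 and the summed enveloping layer markers in each dome library, mutant in red left of wild type in blue, with bars at the group means and numbers for the replicate. Mutant libraries lie above wild type in all 3 panels. Mutant replicate 1 is the highest for sesn3 and phlda3 and the lowest mutant for the markers, whose mutant sums lie close together (929 to 1002 CPM). In wild type, replicate 2 is the highest and replicate 4 the lowest for both sesn3 and the markers, while replicate 4 is the highest for phlda3.

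ddb2 (ENSDARG00000041140), which encodes a subunit of the complex that recognises ultraviolet lesions for nucleotide excision repair, was higher in mutants at 256-cell. It had 91.7, 109.5 and 93.4 CPM in mutant libraries, against 58.8, 59.2 and 54.1 CPM in wild-type libraries. The groups were well apart, at 171% of wild type (log2 fold change 0.78, SE 0.14, kept in all alternatives run). At bud it had 15.7, 17.1, 13.7 and 10.9 CPM in mutants, against 7.08, 5.33, 10.8 and 5.74 CPM in wild type. Mutant libraries were all higher there, the closest pair by little, and the difference was not called (log2 fold change 0.97, SE 0.35) except in 1 fit of all 12 groups (0.99). The remaining log2 fold changes were 0.21 (SE 0.17) at 1-cell, 0.42 (SE 0.20) at dome, 0.22 (SE 0.31) at shield and 0.08 (SE 0.28) at 24 hpf.

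cdkn1a (ENSDARG00000076554), which encodes the cyclin-dependent kinase inhibitor p21 and is the textbook p53 target for cell cycle arrest, was barely detected in either genotype. No library held more than 28 counts. At dome it had 28, 6 and 14 counts in mutants, against 4, 0, 17 and 20 counts in wild type, and at shield 13, 13, 14 and 0 counts in mutants, against 7, 1 and 8 counts in wild type. At 24 hpf there were 4, 0, 3 and 0 counts in mutants and 0 in each wild-type library. At dome and shield, where it passed the filter on low counts, its log2 fold changes were 0.82 (SE 1.25) and 1.08 (SE 1.51) and were not called. With so few counts, only differences well beyond these errors could have been detected. zmat3 (ENSDARG00000080021), which encodes an RNA-binding zinc finger protein that acts on splicing, was similarly sparse. Its highest values were maternal, with 7, 23 and 16 counts at 1-cell and 37, 43 and 6 counts at 256-cell in mutants, against 91, 17, 14 and 8 counts and 14, 7 and 12 counts in wild type. At 24 hpf it had 0 counts in all 8 libraries. Where zmat3 passed the filter (1-cell, 256-cell and dome) it was not called.

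The stage at which the genotypes differed was set against the wild-type course, in which neighbouring stages were compared in fits of their own. By their column names, the 1-cell libraries are numbered in a series of their own, apart from the other stages. At the step from 1-cell to 256-cell, here and in the interactions below, stage and any difference between these sets of libraries cannot be told apart. From 1-cell to 256-cell, 2 of 7 genes tested were called, both lower at 256-cell (ccng1 by a log2 fold change of -1.92, SE 0.16, and sesn1 by -0.65, SE 0.24), beside 49.2% of all genes. From 256-cell to dome it was 6 of 8, beside 43.3%. There pmaip1 rose by 2.23 (SE 0.24), phlda3 by 2.79 (SE 0.49) and ccng1 by 0.74 (SE 0.11), mdm2 fell by 0.55 (SE 0.14) and ddb2 by 0.61 (SE 0.18), and sesn3 had 202 to 386 counts in wild-type libraries at dome, against 1 to 14 counts at 256-cell. From dome to shield all 7 tested were called, beside 52.9%: mdm2 rose by 1.30 (SE 0.13), ccng1 by 0.81 (SE 0.09), sesn3 by 3.70 (SE 0.20), phlda3 by 1.01 (SE 0.32) and pmaip1 by 0.54 (SE 0.17), while sesn1 fell by 2.06 (SE 0.41) and ddb2 by 1.11 (SE 0.26). The median of all genes moved by -0.11 at this step. With library totals as the only scaling, pmaip1 (0.07) and phlda3 (0.54) were no longer called, nor were they without wild-type shield replicate 4 (0.47 and 0.77).

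From shield to bud the pattern turned round, with 6 of 7 called beside 50.5% of all genes. pmaip1 fell by 1.505 (SE 0.18), mdm2 fell by 1.72 (SE 0.12), ccng1 by 1.66 (SE 0.09), sesn3 by 0.58 (SE 0.11) and ddb2 by 1.29 (SE 0.39), and sesn1 rose by 1.46 (SE 0.50). The sesn1 call was lost without wild-type shield replicate 3 or bud replicates 1 or 2 (1.25 to 1.36), the ddb2 call without shield replicate 4 (-1.01), and phlda3 was called without bud replicate 2 (-0.86). From bud to 24 hpf 4 of 7 were called, beside 60%. sesn1 rose by 2.24 (SE 0.23) and ccng1 by 0.62 (SE 0.08), pmaip1 fell by 1.08 (SE 0.24) and sesn3 by 1.69 (SE 0.13), and the median of all genes moved by 0.13. ddb2 (0.79, SE 0.35) was not called, though it was with RLE size factors (0.84), by DESeq2 (0.84), in the fit of all 12 groups (0.80) and without wild-type bud replicate 3 (1.04). mdm2, ccng1, pmaip1, sesn3 and phlda3 thus all had their highest wild-type mean after the 256-cell stage at shield, whereas sesn1 was lowest at shield. At the first step, the sesn1 call was lost without 256-cell replicates 2 or 3 or 1-cell replicates 2, 3 or 4 (-0.66 to -0.55).

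Whether the genotype difference itself changed between neighbouring stages was examined as an interaction in fits of 4 groups. From 1-cell to 256-cell, 1 of 8 genes was called (sesn1, -1.17, SE 0.36), beside 6.88% of all genes. From 256-cell to dome it was 1 of 9 (pmaip1, 1.48, SE 0.45, a smaller deficit at dome), beside 6.94%, and from dome to shield 1 of 9 (mdm2, -0.74, SE 0.19), beside 6.83%. The mdm2 call, on a gene higher in mutants at dome and lower at shield, was lost without mutant dome replicate 1 (-0.63). These interactions rest on the genotype values that chose the genes and are given as a description. From shield to bud 1 of 8 was called (ccng1, 0.74, SE 0.17), beside 2.66%, which is the loss of the ccng1 deficit. From bud to 24 hpf none of 7 was called by edgeR, beside 2.91%, although 2 had an unadjusted p under 0.05 and DESeq2 called 1 of them (sesn1). The sesn1 call at the first step was lost in 11 of 13 fits that left out 1 library (-1.27 to -0.97 in those 11) and the pmaip1 call at the second in 9 of 13 (1.27 to 1.54 in those 9).

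A wider list of 53 p53 pathway genes, written by role with earlier results of these data known, was examined beside the 9, and 36 of them matched a single entry. In mutants 1 was called higher and 1 lower of 30 tested at 1-cell (beside 10.2% of all genes called in either direction), 4 and 1 of 31 at 256-cell (13.5%), 3 and 1 of 30 at dome (17%), 0 and 2 of 27 at bud (5.51%), and 0 and 1 of 29 at 24 hpf (8.63%). At shield edgeR called 0 of 29, beside 9.76% of all genes, although 4 had an unadjusted p under 0.05 DESeq2 called 2, and edgeR called 1 without wild-type replicate 3 or 4. By role, the regulators had 1 higher at 1-cell (cop1) and 1 lower at dome (mdm4) of 6 tested at each stage. Cell death genes had 1 lower of 11 at 1-cell, 2 higher and 1 lower of 12 at 256-cell, and 1 higher of 11 at dome. Cell cycle genes had 2 higher at 256-cell, 1 higher at dome and 1 lower at bud, of 4 tested at each stage. DNA repair genes had 1 higher at dome, 1 lower at bud and 1 lower at 24 hpf, of 6 tested at each stage. No metabolism and antioxidant gene was called. The median log2 fold change of the list was -0.0074 at 1-cell, 0.0043 at 256-cell, 0.02 at dome, -0.12 at shield, -0.17 at bud and -0.0002 at 24 hpf. Named below are, per stage, up to 3 called genes in each direction with at least 5 CPM in the higher genotype. Because these genes were named for being called, their p-values are given as a description and are no separate support.

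The largest difference among them was in rrm2b (ENSDARG00000033367), which encodes the p53-inducible small subunit of ribonucleotide reductase that supplies nucleotides for repair. At 24 hpf it had 7.82, 6.75, 4.05 and 4.95 CPM in mutants, against 47.3, 33.4, 32.6 and 33.0 CPM in wild type. Every mutant library was far lower (log2 fold change -2.62, SE 0.25, adjusted p 1.4e-09 by edgeR's quasi-likelihood test). At bud it had 15.2, 20.6, 22.1 and 21.1 CPM in mutants, against 54.8, 35.5, 47.2 and 43.9 CPM in wild type (log2 fold change -1.22, SE 0.21, adjusted p 0.000959, edgeR), again without overlap. Both calls were kept in all alternatives run. The difference grew from bud to 24 hpf by an interaction of -1.41 (SE 0.33, adjusted p 0.0146, edgeR), a value chosen for printing after it was seen.

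Of the cell death genes, apaf1, whose product assembles the caspase-activating apoptosome, fell to 142 ± 25.2 CPM (SD, n = 3) in mutants at 1-cell, against 244 ± 33.1 (n = 4) in wild type, with a log2 fold change of -0.75 (SE 0.17, adjusted p 0.0149, edgeR). At 256-cell it was at 70.3 ± 6.57 CPM in mutants and 109 ± 11.8 in wild type (n = 3 each; log2 fold change -0.63, SE 0.13, adjusted p 0.00186, edgeR), without overlap at either stage. The 1-cell call was lost without wild-type replicate 2 (-0.67). spata18, which encodes a protein of mitochondrial quality control, had 20.2, 17.8 and 15.8 CPM in mutants at 256-cell, against 5.50, 2.02 and 2.13 CPM in wild type (log2 fold change 2.47, SE 0.39, adjusted p 7.78e-05, edgeR). It had been at 35.9, 35.8 and 14.2 CPM in mutants and 19.6, 10.2, 23.9 and 24.2 CPM in wild type at 1-cell, where the groups overlapped. At shield spata18 was sparse and went the other way, with 0, 0, 0 and 2 counts in mutants, against 17, 17 and 15 counts in wild type. No call was made there. Among cell cycle genes btg1, an antiproliferative factor of the BTG/Tob family, had 326, 302 and 249 CPM in mutants at dome, against 169, 165, 168 and 173 CPM in wild type (log2 fold change 0.81, SE 0.11, adjusted p 7.1e-06, edgeR). The calls of spata18 and btg1 were kept in all alternatives run.

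The remaining calls were weaker. mdm4, which encodes a relative of Mdm2 that restrains p53 activity, averaged 18.4 ± 6.75 CPM (SD, n = 3) in mutants at dome, against 38.2 ± 11.98 (n = 4) in wild type (log2 fold change -1.03, SE 0.29, adjusted p 0.0126, edgeR). Its groups overlapped, and the call was lost without mutant replicates 1 or 2 or wild-type replicate 4 (-0.96 to -0.84). The ubiquitin ligase gene cop1 at 1-cell (0.62, SE 0.18, adjusted p 0.0408, edgeR), triap1 (0.54, SE 0.17, adjusted p 0.0334) and gtse1 (0.51, SE 0.12, adjusted p 0.00371), a microtubule-binding negative regulator of p53, at 256-cell, and polh (1.24, SE 0.41, adjusted p 0.0357), which encodes a translesion polymerase, and tp53inp1 (0.64, SE 0.22, adjusted p 0.0407) at dome were higher in mutants. ccng2, the relative of ccng1, was lower at bud (-0.95, SE 0.28, adjusted p 0.0447). Of these, gtse1 was lost only in the fit of all 12 groups, while the call of each of the others was also lost when single libraries were left out. These were any of the libraries except wild-type replicate 3 for cop1 (0.52 to 0.65), any except wild-type replicate 1 for triap1 (0.44 to 0.59), wild-type replicates 1 and 4 and mutant replicates 2 and 3 for polh (1.03 to 1.204), wild-type replicates 1, 3 and 4 and mutant replicates 1 and 3 for tp53inp1 (0.39 to 0.72; it was also lost with library totals, at 0.60), and wild-type replicates 1 and 4 and mutant replicates 2, 3 and 4 for ccng2 (-1.004 to -0.76).

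**Figure D5:**
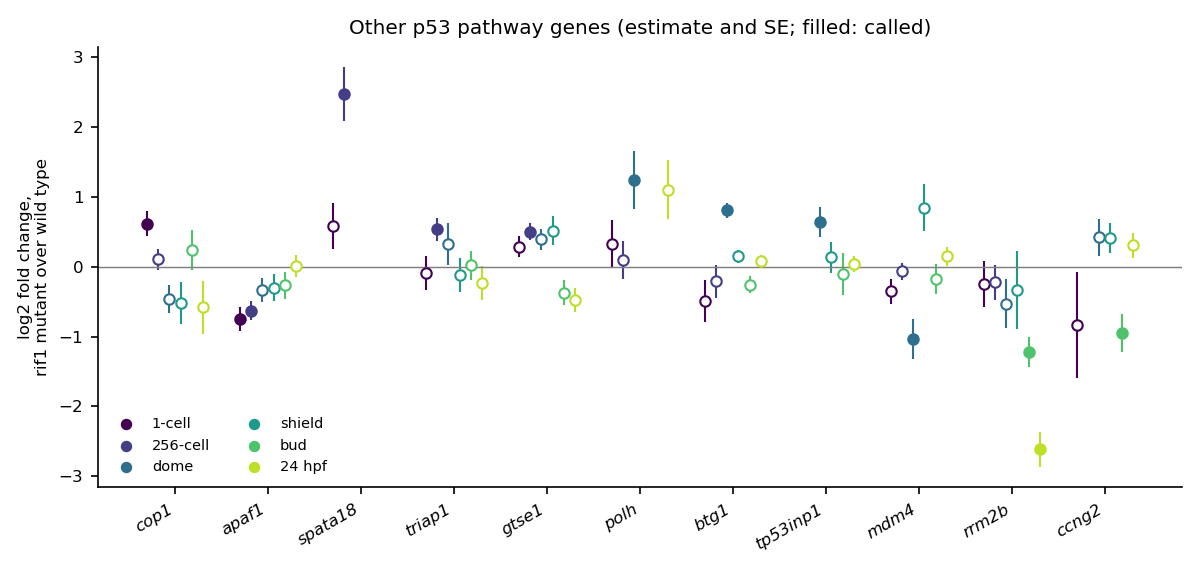
Log2 fold change (mutant over wild type, y axis) of the named other p53 pathway genes (x axis) at each stage (colour, from dark at 1-cell to light at 24 hpf), with bars of 1 SE and filled points where called; stages at which a gene was not tested, or under 5 CPM in both genotypes, have no point. rrm2b reaches -2.62 at 24 hpf and spata18 2.47 at 256-cell.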

How the data were processed

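RNA from whole-embryo pools was sequenced as single-end 3′ libraries, and the authors deposited 1 table of raw read counts per gene, whole numbers without normalization, in which all 43 columns were used. Reads were aligned with STAR and counted with HTSeq on GRCz11, per the submitters' processing notes; versions, annotation, strand setting and any use of molecular identifiers are not given in the sources used here. Counted reads may thus include copies of 1 molecule, and overlapping genes could share them. Totals per library were 5211421 to 14143931 counts, and the 57 replicate pairs differed by more than sampling noise (chi-square per gene at least 7.6). Symbols were matched to the table's gene identifiers through a symbol table and RefSeq synonyms (assembly GRCz12tu, used for names and chromosomes only).

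From the deposited counts, each stage was fitted alone with edgeR 4.0.16 (quasi-likelihood, robust, TMM scaling, filterByExpr; R 4.3.3, limma 3.58.1), and neighbouring wild-type stages and genotype-by-stage interactions were fitted in the same way. Adjustment was Benjamini-Hochberg over all genes tested, at 0.05. CPM used TMM factors over all libraries (0.656 to 1.49). Genes with 3 counts or fewer in a library were taken as at the floor there. The procedure was run on simulated data for the dome comparison alone, drawn with the fitted spread and with changes placed in the more abundant genes. That run does not cover the other stages, the interactions or genes with few counts. Results for 1 gene are not reported here. The 9 genes and all lists were chosen with earlier results of these data known. Besides them, at most 3 called genes per direction and stage with at least 5 CPM in the higher genotype were named, and for each of the 9 the 3 genes of highest Pearson r over 12 group means. Alternatives were RLE size factors, library totals, DESeq2 1.42.0, no filter, a joint fit over the 12 groups, a block for the replicate number, and leaving out each library.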

Additional observations from a re-analysis of the deposited data

Results flagged for a closer look

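In groups of 4 libraries, the values of the 9 genes were examined for 1 library whose gap to the nearest other was too large a part of the group's range by Dixon's 95% critical value. Of 58 combinations of gene and group examined, 5 had one, and chance gives about 1 in 20. The only one in a well-measured transcript was phlda3 in mutant shield replicate 3, at 39.6 CPM. The others were sparse counts: cdkn1a at 0.0 CPM in mutant shield replicate 4 and 0.395 CPM in wild-type 1-cell replicate 2, and zmat3 at 0.0 CPM in mutant shield replicate 4 and 5.48 CPM in wild-type 1-cell replicate 1. Mutant shield replicate 4 was thus the only mutant shield library without a count of either gene.

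The genotype difference was called as changed between neighbouring stages by the edgeR interaction, a description on genes chosen from these values, for sesn1 from 1-cell to 256-cell (-1.17 log2 units), pmaip1 from 256-cell to dome (1.48), mdm2 from dome to shield (-0.74) and ccng1 from shield to bud (0.74).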

How the results depend on the processing

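No value of the 9 genes that was called changed direction in any alternative, and 11 of the 16 called genotype values kept their call in all of them. The fit of all 12 groups, which shares 1 estimate of spread, moved many counts of calls. From 1-cell to 24 hpf it gave 2, 2, 3, 2, 2 and 1 of the 9 genes (3, 3, 5, 2, 1 and 2 in the fits of each stage alone), with the calls of sesn1 at 1-cell, ccng1 at 256-cell, mdm2 and phlda3 at dome and sesn1 at 24 hpf lost and ddb2 at bud gained. The calls over all genes moved too. At 1-cell, 256-cell and dome it called 1312, 725 and 1648 of 17448 genes. The fits of each stage alone called 1232 of 12109, 1499 of 11137 and 1979 of 11634. For the wild-type steps the fit of all 12 groups gave 1, 6, 5, 5 and 6 of the 9 genes (2, 6, 7, 6 and 4 otherwise). It lost sesn1 from 1-cell to 256-cell, pmaip1 and phlda3 from dome to shield and sesn3 from shield to bud. From bud to 24 hpf it gained cdkn1a (lower) and ddb2 (higher). The cdkn1a call, also made without a filter, rested on 3, 0, 0 and 17 counts at bud and 0 in each library at 24 hpf. Over all genes these steps had 4440, 4725, 6477, 6289 and 7267 of 17448 called. Otherwise it was 5857 of 11905, 5081 of 11721, 6192 of 11708, 5751 of 11378 and 7398 of 12323. The fit of all 12 groups gave none of the 9 genes an interaction from 1-cell to 256-cell or from 256-cell to dome (0 and 0, each 1 otherwise). Over all genes it called 669 and 589 of 17448 interactions at these steps, against 898 of 13055 and 904 of 13034. Of the other pathway genes it called 2, 2 and 3 at 256-cell, dome and shield (5, 4 and 0). DESeq2 called 2 and 2 of the other genes at shield and 24 hpf (0 and 1), and 2, 2 and 1 interactions of the 9 genes from 256-cell to dome, dome to shield and bud to 24 hpf (1, 1 and 0). Over all genes DESeq2 called 1272 of 13034, 1123 of 13053 and 633 of 13659 interactions at these steps, against 904, 892 and 398. Without a filter there were 1 and 2 other genes at shield and 24 hpf and 3 interactions from dome to shield (1070 of 20606 over all genes). Library totals gave 1 and 2 other genes at shield and 24 hpf and 0 interactions of the 9 genes from 256-cell to dome, and RLE gave 2 at that step. Over all 13034 genes tested, these settings called 1056 and 946 interactions there. The causes were not tested.

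Replicate numbers are shared between genotypes, but same-numbered libraries did not deviate together (correlations of -0.091 to 0.079), and at no stage did every library match its own number best. With the replicate block, the 9 genes had 3, 3, 4, 2, 1 and 2 calls from 1-cell to 24 hpf, the other genes 2, 3, 2, 1, 1 and 2, and 1 from 1-cell to 256-cell in wild type. Over all genes the block gave 983 of 12109 calls at 1-cell, 1393 of 11137 at 256-cell and 1479 of 11634 at dome. The interactions from 1-cell to 256-cell and from 256-cell to dome had 0 calls of the 9 genes under the block. Over all genes these had 779 of 13055 and 767 of 13034. The mdm2 call at dome was not made (0.42).

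Leaving out each library in turn gave 2 to 2, 3 to 3, 3 to 5, 2 to 3, 1 to 1 and 1 to 2 calls of the 9 genes from 1-cell to 24 hpf, and 0 to 2, 3 to 4, 1 to 4, 0 to 1, 1 to 2 and 1 to 2 of the other genes. For the wild-type steps it gave 1 to 2, 6 to 6, 5 to 7, 5 to 6 and 4 to 5, and for the interactions 0 to 1, 0 to 2, 0 to 3, 1 to 2 and 0 to 1. Interactions that edgeR did not call with all libraries and did call without 1 were ccng1 from 1-cell to 256-cell without wild-type 1-cell replicate 3 (0.71), mdm2 from 256-cell to dome without wild-type 256-cell replicate 2, wild-type dome replicate 2 or mutant dome replicate 3 (0.69 to 0.70), sesn3 from dome to shield without wild-type dome replicate 2 (-1.05) or mutant shield replicate 3 (-0.90), phlda3 from dome to shield and from shield to bud without mutant shield replicate 3 (-2.86 and 2.32), mdm2 from shield to bud without mutant bud replicate 1 (0.73), and sesn1 from bud to 24 hpf without wild-type bud replicate 2 (-1.29). Of these, mdm2 from 256-cell to dome was also called with RLE and by DESeq2 (0.63 each), sesn3 from dome to shield by DESeq2 (-0.76) and without a filter (-0.82), phlda3 from dome to shield without a filter (-1.87) and sesn1 from bud to 24 hpf by DESeq2 (-1.07). Low counts limit the results for cdkn1a and zmat3 at all stages and for sesn3 and phlda3 before dome. Why these counts were low was not tested.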

Other observations

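The genes whose group means over the 12 combinations of stage and genotype ran closest to each p53 target were listed by Pearson r on log2 CPM among 9562 genes, as a description. The 12 points share libraries, depth and the strong change over development. For pmaip1 these were txnl1 (0.94), tfpil (0.88) and aebp2 (0.86), and for ccng1 stxbp6 (0.88), ostf1 (0.85) and mob1ba (0.85). mdm2 was closest to lgsn (0.89), slbp (0.88) and cnpy4 (0.88), and sesn1 to mrpl11, fkbp4 and tspan4b (0.93 each). The zygotic genes had the closest neighbours: sesn3 with cldn8.2, dnase1l4.1 and znf185 (0.99 each) and phlda3 with cldnb, ier2a and ddx39b (0.98 each). ddb2 was closest to naa60, tfap2d and l3mbtl3 (0.97 each).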
